A study of Mus musculus with 8 samples.

Results

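The angiopoietin-like genes of the diabetic mouse kidney were examined in mice treated with rFGF4, a recombinant form of fibroblast growth factor 4, and in vehicle-treated mice. The 6 members, *Angptl1*, *Angptl2*, *Angptl4*, *Angptl6*, *Angptl7* and *Angptl8*, were taken by name from a deposited table of 55401 genes. The family was chosen by these same measurements, with the rFGF4-to-vehicle contrast in view and *Angptl7* among the genes that separated the groups most clearly, so the differences of the members between groups are given as a description and carry no test. Kidney RNA was sequenced from 8 mice, 4 given rFGF4 (mice 1, 2, 3 and 5) and 4 given vehicle (mice 2, 3, 4 and 5), and each library stands for 1 mouse. All 8 mice were diabetic males. The sample labels call every mouse a db/db model, the leptin receptor mutant that develops obesity and type 2 diabetes, whereas the study's results text describes streptozotocin-induced diabetes with PBS as vehicle for the sequenced kidneys, and the sources used here do not settle which is right. In the methods streptozotocin was given to C57BL/6J and gene-targeted mice, the db/db mice were on the C57BLKS/J background, and rFGF4 was injected into the peritoneum every other day in both models. Which strain, age and course of treatment the sequenced mice had is not said where the sequencing is described. The tissue is called kidney in the labels and renal tissue in the study, and whether cortex alone was taken is not given for the sequencing. No non-diabetic kidney was included in this experiment.

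Angiopoietin-like proteins are secreted glycoproteins that resemble the angiopoietins, with an amino-terminal coiled-coil domain and, in most members, a carboxy-terminal fibrinogen-like domain. They do not bind Tie2, the angiopoietin receptor, and act instead on lipases, integrins and immune inhibitory receptors. *Angptl4* and *Angptl8* encode regulators of lipoprotein lipase, the enzyme that releases fatty acids from circulating triglycerides. ANGPTL4 inactivates the enzyme and is induced by fasting, fatty acids through the PPAR nuclear receptors, glucocorticoids and hypoxia, whereas ANGPTL8, which lacks the fibrinogen-like domain, is induced by feeding and insulin. ANGPTL2 is a pro-inflammatory factor of stromal and fat tissue, ANGPTL6 a growth factor that raises energy expenditure, ANGPTL7 a matrix-associated factor best known from the anterior eye, and ANGPTL1 an anti-angiogenic factor of the vessel wall. In the kidney ANGPTL4 has been studied most, in podocytes, the cells of the glomerular filter, and in proteinuria.

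The sequence immediately before the start of *Angptl7* is shown because this member separated the groups, and that of *Angptl8* because it is the shortest member and, like *Angptl7*, lies inside a larger gene on the opposite strand. RefSeq (GRCm38.p6) gave such windows for 5 of the 6 members, *Angptl4* being the exception. Each window holds the 250 bases before the start that RefSeq gives, written 5′ to 3′ on the strand of the gene. The *Angptl7* window is chr4:148500463-148500712 on the minus strand and the *Angptl8* window is chr9:21835260-21835509 on the plus strand. The RefSeq start is that of the GENCODE positions given for the genes in *Angptl8* alone. It lies a few bases before the GENCODE start in *Angptl7* and differs in *Angptl1*, *Angptl2* and *Angptl6* as well, and the *Angptl1* window lies inside its GENCODE span. Capitals mark AAACA, the core of the forkhead motif, or its reverse complement.
Angptl7 upstream: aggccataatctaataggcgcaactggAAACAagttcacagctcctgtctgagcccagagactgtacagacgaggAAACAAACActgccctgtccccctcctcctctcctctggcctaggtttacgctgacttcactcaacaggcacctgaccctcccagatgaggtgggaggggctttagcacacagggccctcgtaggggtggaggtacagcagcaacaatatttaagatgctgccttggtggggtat
Angptl8 upstream: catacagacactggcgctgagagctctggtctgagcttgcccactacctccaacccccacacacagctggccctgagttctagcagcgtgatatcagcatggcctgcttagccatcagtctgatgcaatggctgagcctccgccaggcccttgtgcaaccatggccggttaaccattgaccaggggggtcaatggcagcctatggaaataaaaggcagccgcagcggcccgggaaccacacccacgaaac
AAACA or its reverse complement occurred 3 times in the *Angptl7* window, with an overlapping pair, and in none of the other 4 member windows. It was present in 46.4% of all 32851 windows of this length. The longer forkhead motif GTAAACA, found in 3.17% of all windows, was in none of the 5. A further 6 motifs were searched on both strands, and none was present in the 5 member windows. The nuclear receptor core AGGTCA, to which PPAR dimers bind in repeats, is in 14.0% of all windows. The glucocorticoid receptor core AGAACA is in 16.1% of them. The hypoxia response core ACGTG is in 16.6%, and the E-box CACGTG, which contains that core, in 6.02%. The TATA box (searched as TATAAA) is in 12.4% and the CCAAT box in 33.9%. These letters describe the windows and not binding. The GC content was 54.4% of the *Angptl7* window and 58.8% of the *Angptl8* window, against a median of 52.4% over all windows.

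The 6 genes lie on 5 chromosomes, and 4 of them sit inside another gene on the opposite strand. In the GENCODE M21 annotation of GRCm38, *Angptl7* (ENSMUSG00000028989, chr4:148495183-148500460, minus strand) lies within *Mtor*. *Angptl8* (ENSMUSG00000047822, chr9:21835510-21837347, plus strand) lies within *Dock6*. *Angptl1* (ENSMUSG00000033544, chr1:156838562-156861078, plus strand) lies within *Ralgps2* and *Angptl2* (ENSMUSG00000004105, chr2:33216069-33247717, plus strand) within *Ralgps1*. None of these 4 shares an exonic base with its host, so they occupy intronic sequence of the host. *Angptl4* (ENSMUSG00000002289, chr17:33773750-33781830, minus strand) overlaps no other gene. *Angptl6* (ENSMUSG00000038742, chr9:20873808-20879727, minus strand) shares 16.8% of its exonic bases with *A230050P20Rik* on the opposite strand, and *Angptl1* shares 16.4% with the unclassified transcript *Gm37802*. Whether strand was used in counting is not given in the sources used here, and without it reads from such overlaps cannot be told apart. The coding sequence runs from 198 codons in *Angptl8* through 337 in *Angptl7*, 410 in *Angptl4*, 457 in *Angptl6* and 490 in *Angptl1* to 493 in *Angptl2*.

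Values are FPKM, fragments per kilobase of transcript scaled to the mapped fragments of a library, which are per length and so allow levels of different genes to be ordered. *Angptl4* was the most abundant member in all 8 mice, and *Angptl1* the least abundant. The mean FPKM over the 8 mice decreased in the order *Angptl4*, *Angptl2*, *Angptl8*, *Angptl7*, *Angptl6* and *Angptl1*. *Angptl4* exceeded *Angptl2* by a ratio of means of 4.68, with no overlap between the ranges of the 2 genes. *Angptl2* was above *Angptl8* in 7 of 8 mice, and these neighbours overlapped in range. The position of *Angptl7* depended on the group. It was below *Angptl8* in all 4 vehicle mice and in 2 of 4 rFGF4 mice, and above *Angptl6* in all 4 rFGF4 mice and in 2 of 4 vehicle mice. *Angptl4* made up between 46.1% and 84.8% of the summed FPKM of the 6 members. Among the 15150 genes that passed the filter on low values (at least 0.5 FPKM in 4 or more libraries), 86.1% had a lower mean than *Angptl4*, 50.6% a lower mean than *Angptl2*, 36.0% than *Angptl8*, 24.5% than *Angptl7* and 8.02% than *Angptl6*. *Angptl1* did not pass, as none of its 8 values reached 0.5 FPKM. In bulk kidney RNA, fewer cells that make a transcript and less transcript per cell cannot be told apart.

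**Figure D1:**
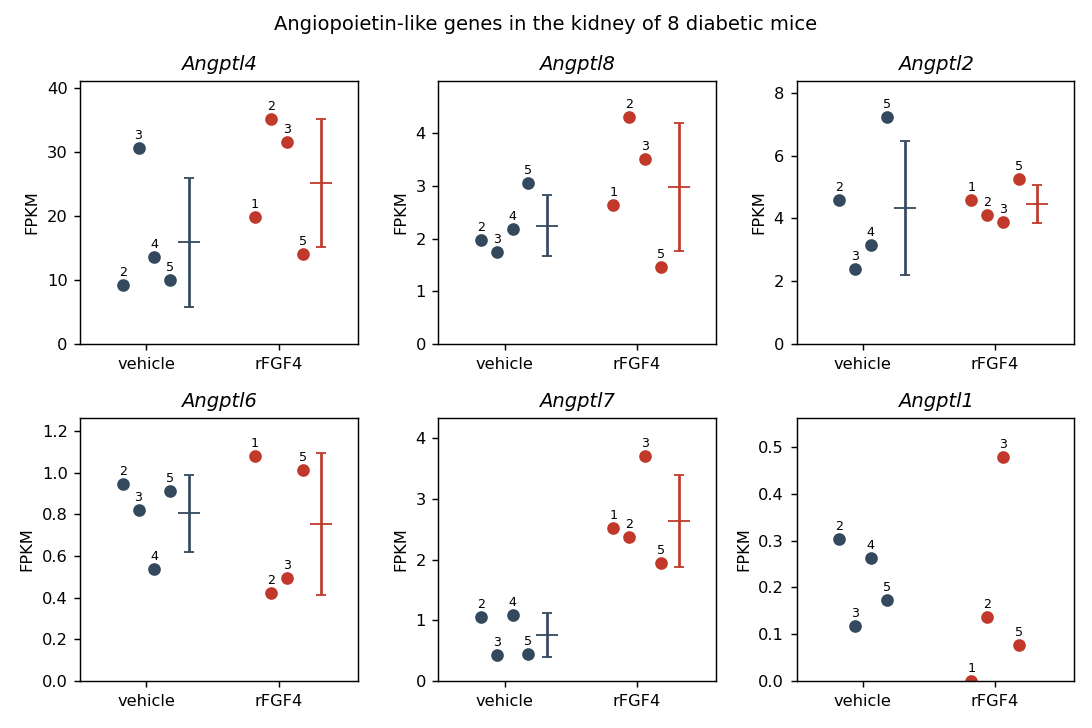
FPKM of each angiopoietin-like gene in 4 vehicle and 4 rFGF4 kidneys; each point is 1 mouse, labelled with its number, and the bars give the group mean and SD (none for *Angptl1*). The rFGF4 mice lie above every vehicle mouse for *Angptl7*, between 1.94 and 3.71 FPKM, and the groups overlap for the other 5 genes.

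*Angptl7* was higher in every rFGF4 kidney than in any vehicle kidney. It measured 2.51, 2.36, 3.71 and 1.94 FPKM in rFGF4 mice 1, 2, 3 and 5, and 1.04, 0.429, 1.09 and 0.442 FPKM in vehicle mice 2, 3, 4 and 5. The vehicle mice fell into a higher pair (2 and 4) and a lower pair (3 and 5), and the lowest rFGF4 mouse still exceeded the highest vehicle mouse. The group means were 2.63 ± 0.757 and 0.752 ± 0.366 FPKM (SD, n = 4 each), a ratio of 3.50. On the log2(FPKM + 1) scale, which understates the change of low genes, the difference was 1.05 (SE 0.20). It lay between 0.92 and 1.15 when each mouse was left out in turn, and with a pseudocount of 0.1 in place of 1 it was 1.75. Over all tested genes, 2.66% had all rFGF4 values above all vehicle values and 0.667% the reverse. Because the family was chosen by this contrast, nothing is read from the separation of *Angptl7*. For genes that are not members, a call is an unadjusted limma p under 0.05 with a fold of at least 1.5, a threshold by which 1.09% of all tested genes were higher and 0.436% lower in rFGF4 kidneys. No gene passed at an adjusted p of 0.05 by limma with Benjamini-Hochberg adjustment, where the smallest adjusted p was 0.918, and 700 genes had an unadjusted p under 0.05.

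*Angptl4*, the lipoprotein lipase inhibitor, varied widely within both groups. It measured 19.9, 35.3, 31.7 and 14.0 FPKM in rFGF4 mice 1, 2, 3 and 5, and 9.19, 30.7, 13.7 and 10.1 FPKM in vehicle mice 2, 3, 4 and 5. Vehicle mouse 3 stood at the level of the highest rFGF4 mice, while the other 3 vehicle mice lay below every rFGF4 mouse. The means were 25.2 ± 9.95 and 15.9 ± 10.0 FPKM (SD, n = 4 each), and the log2(FPKM + 1) difference of 0.71 had an SE of 0.41. Without vehicle mouse 3 the difference was 1.06, and with each of the other 7 mice left out it lay between 0.52 and 0.94. The SD within groups was as large as the difference of the means.

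*Angptl8*, the feeding-induced partner in lipase inhibition, measured 2.64, 4.31, 3.50 and 1.46 FPKM in rFGF4 mice 1, 2, 3 and 5 and 1.98, 1.75, 2.19 and 3.06 FPKM in vehicle mice 2, 3, 4 and 5. Both the highest and the lowest values came from rFGF4 mice. The means were 2.98 ± 1.22 and 2.24 ± 0.573 FPKM (SD, n = 4 each), and the log2 difference was 0.25 (SE 0.25).

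*Angptl2*, the pro-inflammatory member, measured 4.60, 4.10, 3.88 and 5.25 FPKM in rFGF4 mice 1, 2, 3 and 5 and 4.59, 2.40, 3.15 and 7.22 FPKM in vehicle mice 2, 3, 4 and 5. The rFGF4 mice lay within the wider range of the vehicle mice. The means were 4.46 ± 0.607 and 4.34 ± 2.13 FPKM (SD, n = 4 each), and the log2 difference of 0.11 (SE 0.26) ran from -0.083 to 0.34 with each mouse left out.

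*Angptl6* was low, at 1.08, 0.423, 0.495 and 1.01 FPKM in rFGF4 mice 1, 2, 3 and 5 and 0.947, 0.821, 0.537 and 0.913 FPKM in vehicle mice 2, 3, 4 and 5. The rFGF4 mice formed a high pair (1 and 5) and a low pair (2 and 3) that enclosed all vehicle values. The means were 0.753 ± 0.342 and 0.804 ± 0.186 FPKM (SD, n = 4 each), and the log2 difference of -0.056 (SE 0.16) became 0.041 when libraries were rescaled to the same summed FPKM. *Angptl1* was at or near the limit of the table. It was listed at the floor that stands for 0 in rFGF4 mouse 1, and at 0.138, 0.478 and 0.0765 FPKM in rFGF4 mice 2, 3 and 5. The vehicle mice 2, 3, 4 and 5 had 0.302, 0.117, 0.262 and 0.173 FPKM, within the range of the rFGF4 mice.

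**Figure D2:**
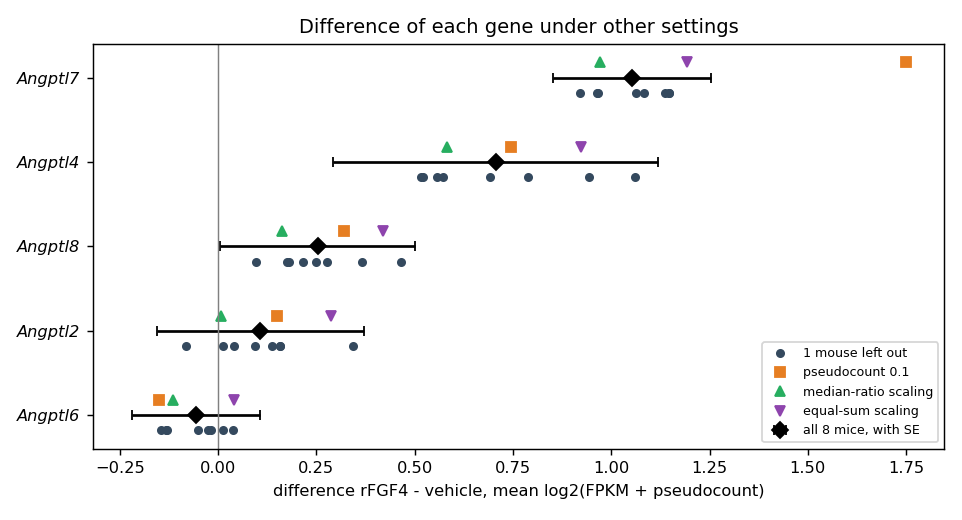
Difference between rFGF4 and vehicle kidneys in mean log2(FPKM + pseudocount) for the 5 members that passed the filter; diamonds with bars give the value and SE from all 8 mice (pseudocount 1), circles the values with 1 mouse left out, and coloured symbols another pseudocount or scaling. *Angptl7* keeps a difference of at least 0.92 at every setting drawn, and the values of *Angptl2* and *Angptl6* fall on both sides of 0.

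The genes around the members were measured in the same kidneys. Of the genes that overlap a member or lie next to it, 1 was called among those described here, higher in rFGF4 kidneys. The share called higher over all tested genes was 1.09%. *Rab11b*, which encodes a small GTPase of endosome recycling and begins 13219 bases from *Angptl4* on the same strand, rose from 9.07 ± 5.70 to 23.8 ± 4.95 FPKM (SD, n = 4 each). Its values were 30.1, 25.3, 20.4 and 19.3 FPKM in rFGF4 mice 1, 2, 3 and 5 and 17.3, 4.07, 7.49 and 7.45 FPKM in vehicle mice 2, 3, 4 and 5, so the groups did not overlap. The log2(FPKM + 1) difference was 1.44 (SE 0.36, exact permutation p = 0.0286, the smallest that 4 against 4 mice can give; limma adjusted p = 0.918). *Kank3*, on the other side of *Angptl4*, ranged from 4.93 to 10.5 FPKM in the rFGF4 group and from 4.94 to 9.37 FPKM in the vehicle group. *Mtor*, the nutrient-sensing kinase gene whose intron holds *Angptl7*, measured 8.69, 13.7, 17.7 and 14.7 FPKM in rFGF4 mice 1, 2, 3 and 5 and 14.5, 11.3, 14.5 and 9.45 FPKM in vehicle mice 2, 3, 4 and 5. Its groups overlapped throughout, with a log2 difference of 0.11 (SE 0.23, two-sided exact permutation p = 0.714) that became -0.0090 under median-ratio scaling. As for *Angptl7*, vehicle mice 2 and 4 lay above vehicle mice 3 and 5, and rFGF4 mouse 3 was highest. In rFGF4 mouse 1, *Mtor* was lowest of its group and *Angptl7* was not. The part of *Mtor* reads in the *Angptl7* values was not tested. *Exosc10*, next to the same locus, was not called either. *Dock6*, the host of *Angptl8*, differed by -0.20 (SE 0.20, exact permutation p = 0.371). The hosts *Ralgps2* and *Ralgps1* ranged from 0.800 to 1.26 and from 1.07 to 2.26 FPKM over the 8 mice. *A230050P20Rik*, which shares exonic bases with *Angptl6*, ranged from 2.13 to 10.3 FPKM, above *Angptl6* in every mouse, and its part in the *Angptl6* values was not tested. Of the remaining neighbours, *Fam20b*, *Zbtb34*, *Ppan*, *Kank2* and *Rab3d* were not called, *Gm37802* and *Garnl3* were too low to test, and *Tex35* and *Rdh8* were at the floor in all 8 libraries.

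Genes around the angiopoietin-like proteins were grouped in 6 lists of 105 genes, of which 98 were tested. The lists hold lipase partners, receptors, the angiopoietins with their Tie receptors, and regulators with their targets. In these lists 7 genes were called higher and 1 lower in rFGF4 kidneys, and 90 were not called. That is 7 of 98 against 1.09% of all tested genes in the higher direction and 1 of 98 against 0.436% in the lower. The lists were drawn up with earlier results of these data known, so their counts are not independent evidence of a direction. The median log2 difference was 0.19 in the 98 genes and 0.086 over all tested genes. None had an adjusted p below 0.918 by limma.

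Around lipoprotein lipase, 1 of 19 tested genes rose and none fell. *Sel1l*, an endoplasmic reticulum adaptor needed for maturation of the lipase, rose from 4.12 ± 1.34 to 7.65 ± 1.24 FPKM (SD, n = 4 each), a log2 difference of 0.78 (SE 0.21, exact permutation p = 0.0286), with no overlap between groups. It was called with any 1 of the 8 mice left out. *Lpl*, the lipase itself, measured 14.7, 12.3, 9.93 and 15.9 FPKM in rFGF4 mice 1, 2, 3 and 5 and 20.9, 11.1, 14.1 and 11.5 FPKM in vehicle mice 2, 3, 4 and 5. Its groups overlapped, with a log2 difference of -0.095 (SE 0.22) that turned to 0.12 with summed FPKM made equal. *Gpihbp1*, which carries the lipase to the capillary surface, differed by -0.39 (SE 0.16, exact permutation p = 0.0571) and missed the fold threshold. *Lmf1*, the lipase maturation factor, differed by -0.075 (SE 0.10), or 0.079 with equal sums. *Furin*, the convertase that cleaves ANGPTL4 and the lipase, lay between 16.0 and 19.6 FPKM in rFGF4 mice and between 13.5 and 14.9 FPKM in vehicle mice without overlap, but its difference of 0.35 (SE 0.11) stayed under the fold threshold.

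No gene of the receptor list was called among 12 tested, where the median log2 difference was 0.040. That list mixes receptors of the family with the angiopoietins and their own receptors. The differences of *Pirb*, *Lilrb4a* and the integrin chains were all positive, from 0.011 to 0.56. Those of *Angpt1*, *Angpt2*, *Tek* and *Tie1* were all negative, from -0.45 to -0.049. *Pirb*, the mouse leukocyte receptor for several angiopoietin-like proteins, spanned 0.863 to 8.48 FPKM in rFGF4 mice and 0.419 to 8.69 FPKM in vehicle mice. Its difference of 0.040 (SE 0.76) was far inside that spread. *Itgav*, the integrin chain that binds fibrinogen-like ligands, differed by 0.011 (SE 0.45), with 1 vehicle mouse (mouse 2) at 5.30 FPKM and the other 7 mice at or below 1.89 FPKM. Without that vehicle mouse the *Itgav* difference was 0.50 (SE 0.19), still under the fold threshold. Both signs turned under median-ratio scaling, to -0.051 for *Pirb* and -0.073 for *Itgav*.

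The PPAR list, nuclear receptors of fatty acids and their targets, had 3 genes called higher and 1 lower among 23 tested, with a median log2 difference of 0.27. *Ppara*, the receptor that drives fatty acid oxidation, measured 3.27, 7.86, 15.6 and 6.88 FPKM in rFGF4 mice 1, 2, 3 and 5 and 3.26, 0.991, 4.63 and 2.19 FPKM in vehicle mice 2, 3, 4 and 5. Mouse 1 of the rFGF4 group lay within the vehicle range, and the other 3 lay above it. The log2 difference was 1.26 (SE 0.45, exact permutation p = 0.0571). *Pdk4*, the kinase that spares glucose by blocking pyruvate oxidation, rose from 8.11 ± 5.56 to 19.5 ± 8.48 FPKM (log2 difference 1.28, SE 0.46, exact permutation p = 0.0571). *Fabp1*, an intracellular fatty acid carrier, rose from 2.40 ± 1.31 to 6.34 ± 3.16 FPKM (log2 difference 1.09, SE 0.37, exact permutation p = 0.0571). *Fabp4*, the fatty acid carrier of fat and capillary cells, fell from 13.6 ± 2.69 to 8.13 ± 3.57 FPKM (log2 difference -0.73, SE 0.26, exact permutation p = 0.0857). With 1 mouse left out at a time, *Fabp1* lost its call without vehicle mouse 3, and *Ppara* without rFGF4 mouse 3 or vehicle mouse 3. *Pdk4* lost it without rFGF4 mouse 1 or 2 or vehicle mouse 2 or 5, and *Fabp4* without rFGF4 mouse 2 or 3 or vehicle mouse 2 or 3. Median-ratio scaling ended the call of *Ppara* (log2 difference 1.16) and equal sums that of *Fabp4* (-0.53). On the 6 mice whose number occurs in both groups, *Pdk4*, *Fabp1* and *Fabp4* were not called, with or without the number as a block. *Pdk4* was also not called when rFGF4 mouse 1 and vehicle mouse 5 were left out together. The receptors *Ppard* and *Pparg* were low and were not called, with log2 differences of 0.24 (SE 0.17) and 0.10 (SE 0.19).

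In the glucocorticoid list 2 of 11 tested genes rose, none fell, and the median difference was 0.58. A positive difference was found for 10 of the 11, and for 67.1% of all tested genes. *Fkbp5*, a chaperone induced by the glucocorticoid receptor, measured 22.8, 33.3, 47.7 and 18.8 FPKM in rFGF4 mice 1, 2, 3 and 5 and 13.2, 17.1, 13.1 and 12.7 FPKM in vehicle mice 2, 3, 4 and 5. All rFGF4 values exceeded all vehicle values, with a log2 difference of 0.995 (SE 0.27, exact permutation p = 0.0286), and the call held with any 1 mouse left out. *Dusp1*, a phosphatase of stress kinases, also did not overlap between groups, at 24.4 ± 13.8 against 9.65 ± 1.55 FPKM (log2 difference 1.08, SE 0.39, exact permutation p = 0.0286). Its call was lost without rFGF4 mouse 2, rFGF4 mouse 3 or vehicle mouse 4, and under median-ratio scaling (log2 difference 0.96). In the lipogenic list 1 of 17 tested genes rose. *Fasn*, the fatty acid synthase, went from 3.59 ± 0.665 to 6.49 ± 1.97 FPKM (log2 difference 0.67, SE 0.23, exact permutation p = 0.0857) and lost its call without rFGF4 mouse 1 or mouse 2, and under median-ratio scaling (0.56). It was also not called on the 6 mice whose number occurs in both groups (0.54), with or without the number as a block. None of the 16 hypoxia genes was called, and their median difference was 0.010. Their differences were positive for 8 and negative for 8. *Egln3*, an oxygen sensor and hypoxia target named here after its values were seen, did not overlap between groups (13.4 to 19.8 against 8.61 to 11.7 FPKM) at a difference of 0.58 that fell just short of the fold threshold. *Ankrd37* of the same list, also named after its values were seen, went the other way at -0.49 (SE 0.18, exact permutation p = 0.0571).

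**Figure D3:**
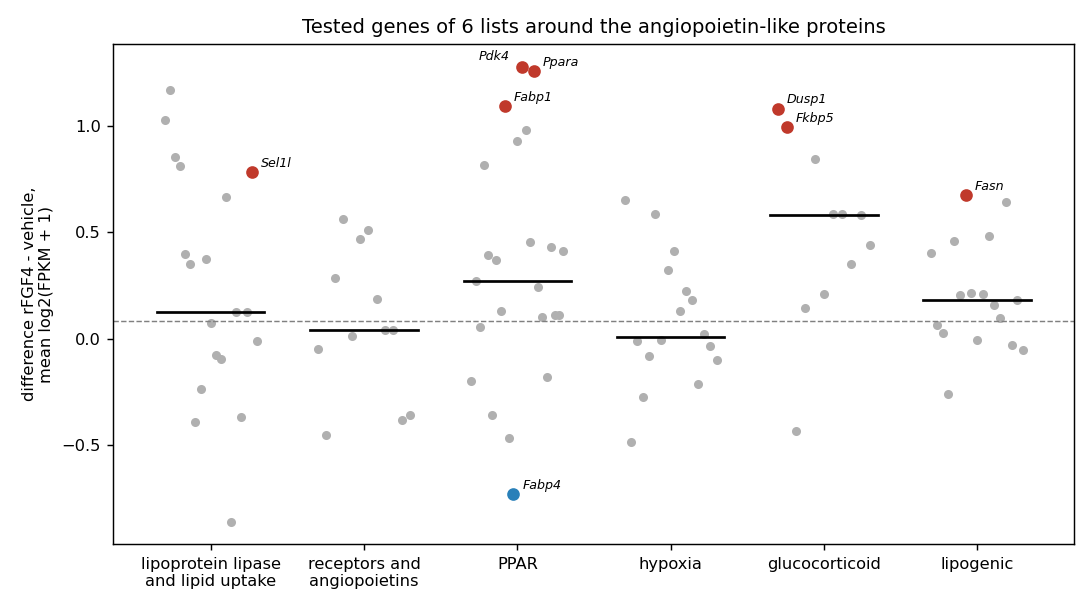
Difference between rFGF4 and vehicle kidneys in mean log2(FPKM + 1) for each tested gene of 6 lists; red and blue points were called higher and lower, grey points were not called, black bars mark the median of a list and the dashed line the median of all tested genes (0.086). The called genes are 7 higher and 1 lower of 98, and the glucocorticoid list has the highest median, 0.58.

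The KEGG sets of the deposited table that hold angiopoietin-like genes were counted in the same way. With the members left out, 61 genes of PPAR signaling were tested, of which 4 were called higher (*Apoa1*, *Acsl4*, *Fabp1* and *Ppara*) and 1 lower (*Fabp4*), with a median log2 difference of 0.10. Of 39 tested genes of cholesterol metabolism, 2 were called higher (*Apoa4* and *Apoa1*), with a median of 0.17. *Apoa1*, the main protein of high-density lipoprotein, measured 7.06 ± 2.53 against 2.54 ± 1.06 FPKM (log2 difference 1.18, SE 0.30, exact permutation p = 0.0286) without overlap between groups.

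How the members varied from mouse to mouse was examined after subtracting the mean of each group, which removes the contrast that chose them. Among the 10 pairs of the 5 tested members, *Angptl2* and *Angptl4* had the strongest relation. Mice with more *Angptl4* than their group had less *Angptl2* (Pearson r = -0.77, Spearman rho = -0.83, exact permutation p = 0.0365 and 0.0226, n = 8). After Benjamini-Hochberg adjustment over the 10 pairs the p for r was 0.365. Leaving out the 2 mice farthest from the median of the first gene gave r = -0.74. No pair passed the adjustment.

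The members were also set against the mean of each of the 6 functional and 9 cell type lists, 75 relations in all, by the same test. Here the 2 farthest mice were those farthest from the median of the list mean, not of the member. *Angptl6* ran opposite to the PPAR list (r = -0.94, rho = -0.90, exact permutation p = 0.00347 and 0.0139, n = 8, r = -0.87 without the 2 farthest mice). *Angptl2* ran with the endothelial markers (r = 0.85, rho = 0.93, exact permutation p = 0.00694 and 0.00521, r = 0.80 without the 2 farthest mice). The Benjamini-Hochberg adjusted p of both was 0.260. *Angptl4* ran with the liver markers (r = 0.83, rho = 0.88, exact permutation p = 0.0295 and 0.0191, r = 0.66 without the 2 farthest mice) and with the glucocorticoid list (r = 0.71, rho = 0.71, exact permutation p = 0.0295 and 0.0781, r = 0.58). It ran opposite to the endothelial markers (r = -0.77, rho = -0.83, exact permutation p = 0.0434 and 0.0278, r = -0.63). *Angptl8* ran with the glucocorticoid list (r = 0.85, rho = 0.62, exact permutation p = 0.0469 and 0.193, r = 0.41). The adjusted p was 0.553 for the first 2 of these relations and 0.586 for the last 2, and the other 69 had an unadjusted exact permutation p for r of 0.111 or more. None of the 75 passed the adjustment.

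The genes whose pattern was most like each member were taken as the 3 with the highest Pearson r of within-group deviations among 13199 candidates over the 8 mice. As they are the top of so many, their r is a description only. For *Angptl4* they were *Mrpl38* (r = 0.96), *Slc25a30* (0.95) and *B830017H08Rik* (0.95). For *Angptl8* they were *Atg4c* (r = 0.98), *Trim39* (0.97) and *Tsc22d3* (0.97). *Tsc22d3*, a glucocorticoid-induced leucine zipper gene, belongs to the glucocorticoid list, so its match is not independent of the relation of *Angptl8* with that list. It measured 13.6, 18.1, 17.5 and 8.16 FPKM in rFGF4 mice 1, 2, 3 and 5 and 8.62, 6.70, 8.08 and 12.9 FPKM in vehicle mice 2, 3, 4 and 5. Like *Angptl8*, it was highest in its group in rFGF4 mouse 2 and vehicle mouse 5 and lowest in rFGF4 mouse 5 and vehicle mouse 3. For *Angptl7* the genes were *Cox11* (r = 0.97), *Cpeb4* (0.96) and *Txnrd2* (0.96). *Cpeb4* showed the same high and low pairs of vehicle mice as *Angptl7*, at 10.6 and 11.7 FPKM in mice 2 and 4 and 0.352 and 1.31 FPKM in mice 3 and 5. For *Angptl2* they were *Fyttd1* (r = 0.98), *Rpa1* (0.97) and *Prdx4* (0.95), and for *Angptl6* *Abi2* (r = 0.98), *Susd4* (0.97) and *Gm15264* (0.97).

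**Figure D4:**
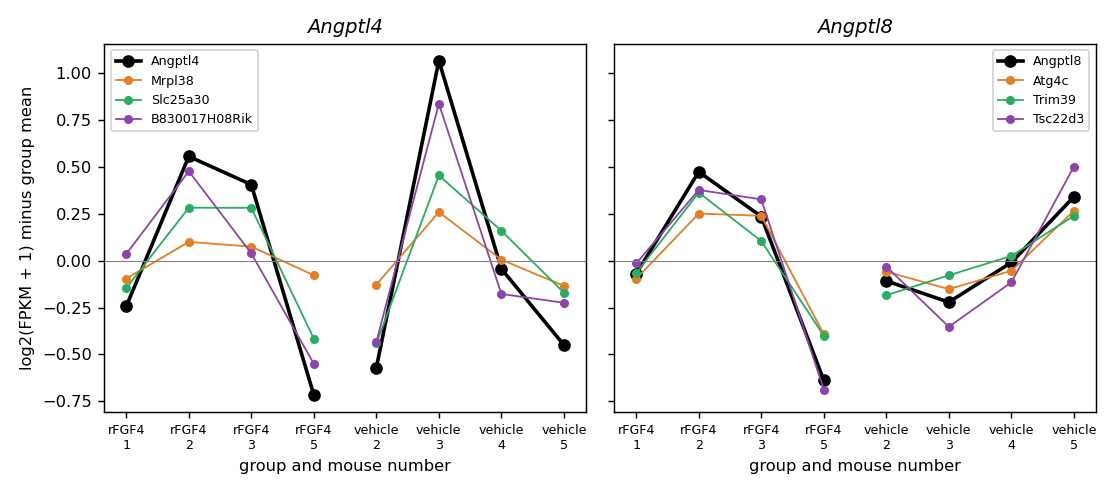
Deviation of log2(FPKM + 1) from the group mean in each of the 8 mice for *Angptl4* (left) and *Angptl8* (right), black, with the 3 genes whose deviations correlated best with each, coloured. *Angptl4* peaks in vehicle mouse 3 and rFGF4 mouse 2, and *Angptl8* has its lowest point in rFGF4 mouse 5.

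The libraries were checked for cell types that could carry these genes. Between 22683 and 24837 genes were above the floor per library, and correlations between libraries lay between 0.836 and 0.960 (Spearman, across genes). The 10 proximal tubule markers summed to 644 to 2529 FPKM in rFGF4 and 1453 to 2570 FPKM in vehicle mice, with none called. The 644 FPKM were those of rFGF4 mouse 1, which also had the lowest *Ppara* of its group, and the other 3 rFGF4 mice had at least 1964 FPKM. Fat is a known source of *Angptl4*, *Angptl8* and *Angptl2*, and the labels' extraction text mentions an adipose type. Of the 10 fat markers, *Retn* was at the floor in all 8 libraries, *Lep* and *Cfd* in at least 6, and *Plin1* and *Adipoq* did not exceed 0.186 FPKM. *Cidec*, a lipid droplet gene, measured 0.558, 0.414 and 0.351 FPKM in rFGF4 mice 1, 2 and 3, was at the floor in rFGF4 mouse 5, and ranged from 0.123 to 0.273 FPKM in vehicle mice. The other 4 markers, *Fabp4*, *Pck1*, *Lipe* and *Car3*, were tested, and *Fabp4* was called, lower. The 10 together summed to 621 to 2656 FPKM in rFGF4 and 793 to 1401 FPKM in vehicle mice, almost all of it *Pck1*, which kidney tubules also express. The 13 liver markers, of which kidney tubules express several, summed to 746 to 1091 FPKM in rFGF4 and 489 to 780 FPKM in vehicle mice, with 3 called higher (*Apoa1*, *Serpina1a* and *Serpina1c*). Their differences were positive for 11 of 13, with a median of 0.60. *Alb*, the gene that defines hepatocytes, measured 9.66 ± 1.58 and 9.76 ± 5.42 FPKM. Of 7 podocyte markers 1 was called, *Synpo*, higher at 3.93 ± 1.79 against 1.58 ± 0.475 FPKM. All 7 had a positive difference. For comparison with these counts, 67.1% of all tested genes had a positive difference, with a median of 0.086. That median was -0.012 under median-ratio scaling, and the marker signs were not examined under other scalings. No fibroblast, mural, endothelial, distal tubule or leukocyte marker was called. The difference was negative for 7 of 8 endothelial markers (median -0.18), the direction of the capillary genes *Fabp4* and *Gpihbp1*, and for 8 of 9 distal and 8 of 10 proximal tubule markers (medians -0.33 and -0.29). It was positive for 8 of 9 tested fibroblast markers (median 0.42). The proximal and distal sums of rFGF4 mouse 1, 644 and 1135 FPKM, were the lowest of the 8 mice. The distal sums of the other 3 rFGF4 mice were 1696 to 1813 FPKM, against 1156 to 1670 FPKM in vehicle mice. The largest part was *Umod*, the 1 distal marker with a positive difference (0.39). Whether the tubule signs hold without rFGF4 mouse 1 was not tested. The 12 leukocyte markers summed to 113 to 3004 FPKM in rFGF4 and 42.8 to 23649 FPKM in vehicle mice, highest in rFGF4 mouse 1 and vehicle mouse 5, which also had the highest summed fibroblast markers of their groups. With both mice left out, the *Angptl7* difference was 0.98, *Angptl4* 0.64, *Angptl8* 0.39, *Angptl2* 0.33 and *Angptl6* -0.12, and 16 of the 98 functional genes were called, 13 higher and 3 lower, against 273 of all tested genes, 202 higher and 71 lower. The part of these cell types in the member values was not tested.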

How the data were processed

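Kidney RNA of 8 diabetic mice was sequenced as paired-end poly(A) libraries, per the labels on a NovaSeq and per the methods on a HiSeq. The authors assembled transcripts with StringTie, merged them with gffcompare and deposited FPKM per gene, with 0.0001 in place of 0. The submitters' processing notes name Bowtie 0.12.2, HISAT2 2.0, StringTie 1.3.0 and the build mm8, which gives no gene positions here. Positions came from GENCODE M21 on GRCm38, where 55141 of 55401 identifiers (99.5%) were found. The table also holds fold changes, log2 fold changes, p-values and q-values of the comparison made by the authors, which were not used. No counts are in the table, so depth and counting error are unknown and the number of mice limits the precision.

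Genes with at least 0.5 FPKM in 4 or more libraries were compared as log2(FPKM + 1) with limma 3.58.1 in R 4.3.3 (trend in the prior variance, Benjamini-Hochberg adjustment over 15150 genes, tested on simulated data). A call was an unadjusted p under 0.05 with a fold of at least 1.5 on that scale, after the threshold of the study. Single genes were compared by two-sided exact permutation tests over all assignments of 4 and 4 mice. Nothing states whether mice were housed or treated together. Relations between genes used exact permutations within groups.

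The members, the gene lists and the rule for named genes were chosen with earlier results of these data known. Named were the members, overlapping and nearest genes, *Lpl*, *Gpihbp1*, *Lmf1*, *Furin*, the 3 PPAR receptors, *Pirb*, *Itgav*, called genes of the functional lists and the 3 most similar genes per member. The result of 1 gene under this rule is not reported here. The forkhead motifs, *Egln3*, *Ankrd37*, the called marker genes and the KEGG genes were added after values were seen. Alternatives were another pseudocount, no filter, 2 scalings, each mouse left out, the mouse number as a block, and mice 1 (rFGF4) and 5 (vehicle) left out together, the last added after seeing the data. No 2 libraries held identical values.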

Additional observations from a re-analysis of the deposited data

Results flagged for a closer look

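On the log2(FPKM + 1) scale, in 3 of 74 groups of 4 mice, 1 mouse lay farther from the others than Dixon's 95% limit for 4 values allows, where chance gives about 3.7. None was a member. *Furin* in rFGF4 mouse 5 was 16.0 FPKM against 19.0 to 19.6 FPKM in the other 3 (ratio of gap to range 0.85 on the log2 scale). *Fkbp5* in vehicle mouse 3 was 17.1 FPKM against 12.7 to 13.2 FPKM (0.87). The summed distal tubule markers in rFGF4 mouse 1 were 1135 FPKM against 1696 to 1813 FPKM (0.857). The scale decides which groups are listed. On the FPKM scale 7 groups passed the limit, without the distal tubule sum and with *Itgav*, *Dock6* and the summed fibroblast and leukocyte markers in vehicle mice and *Fabp4* in rFGF4 mice.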

How the results depend on the processing

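With 1 mouse left out, the difference ranged from 0.92 to 1.15 for *Angptl7*, 0.52 to 1.06 for *Angptl4*, 0.095 to 0.47 for *Angptl8*, -0.083 to 0.34 for *Angptl2* and -0.15 to 0.037 for *Angptl6*. With equal sums it was 1.19 for *Angptl7* and 0.041 for *Angptl6*, with a pseudocount of 0.1 it was 1.75 for *Angptl7*, and on the 6 mice of shared number it was -0.22 for *Angptl6* and -0.0015 for *Angptl2*. The 231 calls over all genes (165 higher, 66 lower, 71.4% higher) became 348 with a pseudocount of 0.1, 533 with equal sums (95.1% higher, median shift 0.26) and 174 with median-ratio scaling (53.4% higher, median -0.012). They were 187 to 575 with a mouse left out, the highest without rFGF4 mouse 5, and 432 without vehicle mouse 5. The 8 calls in the functional lists became 5 with median-ratio scaling, 19 with equal sums (19 higher), 5 to 19 with a mouse left out (5 without rFGF4 mouse 2, 19 without rFGF4 mouse 5, 12 without vehicle mouse 5), and 16 without rFGF4 mouse 1 and vehicle mouse 5. The 9 calls among partner and neighbour genes were 5 to 9 with a mouse left out, with *Rab11b*, *Sel1l* and *Fkbp5* called at every setting. Mice of the same number did not deviate together (r = -0.23, -0.16 and -0.39 for numbers 2, 3 and 5). With 3 such correlations, whether the numbers stand for a pairing cannot be told. With the number as a replicate block on those 6 mice, 15 functional and 5 partner genes were called, as without the block on the same mice (15 and 5).

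Uncalled differences that changed sign were, with equal sums, *Lpl* 0.12, *Lmf1* 0.079 and *Ralgps2* 0.062. With median-ratio scaling they were *Pirb* -0.051, *Itgav* -0.073, *Ralgps1* -0.038 and *Mtor* -0.0090. With or without the block on the 6 mice they were *Pparg* -0.052, *Pirb* -0.77, *Itgav* -0.24, *Ralgps1* -0.087 and *A230050P20Rik* -0.25. Without mice 1 and 5 they were *Itgav* -0.19, *Ralgps2* 0.025 and *Ralgps1* -0.044. With 1 mouse left out the ranges were *Lpl* -0.20 to 0.088, *Pparg* -0.016 to 0.24, *Pirb* -0.43 to 0.53, *Itgav* -0.23 to 0.50, *Ralgps2* -0.094 to 0.016, *Ralgps1* -0.059 to 0.16, *A230050P20Rik* -0.11 to 0.47 and *Mtor* -0.020 to 0.30. The cause of these changes was not tested. Depth is unknown, and *Angptl1*, *Angptl6* and vehicle *Angptl7* lie near the filter.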
